A study of Saccharomyces cerevisiae with 12 samples.

Results

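The 9 genes described here are the 5 enzymes that lead from zymosterol to ergosterol (ERG6, ERG2, ERG3, ERG5 and ERG4), the sterol regulators UPC2 and ECM22, and the sterol importers AUS1 and PDR11, chosen by gene symbol from the 5449 named budding yeast genes on the array. Each has 1 probe set, and none lay below background on any array. Expression was measured on 12 Affymetrix arrays in 6 groups of 2. The groups are labelled E62A, E62B and E62C (3 evolved mutants, selected on galactose), SO16 (an engineered strain that lacks GAL80, MIG1 and LAP3, as known from the study), PGM2 (engineered to overexpress PGM2, as known from the study) and REF. The labels give every group the CEN.PK113-7D background, a haploid laboratory strain, and the same galactose minimal medium in fermenters at pH 5.0, with sampling in mid exponential phase. Nothing in them says that an evolved mutant is a single clone or that both arrays of a group had cultures of their own, and p values therefore reflect the variation from array to array, possibly technical in part.

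Ergosterol is the main sterol of fungal membranes. Its synthesis runs from acetyl-CoA through mevalonate and squalene to zymosterol, and then through the late enzymes studied here, several steps needing molecular oxygen and heme. Upc2 and Ecm22 are paralogous zinc cluster activators that bind sterol response elements in front of ERG genes and act more strongly when sterols run low. Cells that make their own sterol with oxygen take up little from outside, whereas Aus1 and Pdr11, transporters of the ATP-binding cassette family, import sterol when oxygen is lacking. ERG5 is of interest for the study itself, which is known to list it among the genes mutated in its evolved strains.

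Levels are log2 values of the robust multi-array average (RMA), and a difference is one log2 level minus another, given ± the standard error (SE) of a limma fit over all 12 arrays. A difference passed the test at a Benjamini-Hochberg adjusted p under 0.05, computed over all 5449 genes. In whole cultures, a change in every cell and a change in part of the cells cannot be told apart. The labels were checked first. On the arrays labelled SO16 the 3 deleted genes lay between 5.62 and 6.29, against 9.20 to 11.43 on the REF arrays. PGM2 went against the labels, with 10.49 and 10.87 on the arrays labelled PGM2, 13.43 and 13.19 on those labelled E62C, and 12.14 and 12.11 on the REF arrays, and every result given below for E62C or PGM2 depends on which of these labels is right. URA3, a gene of uracil synthesis singled out after its values were seen, stood at 12.12 and 12.34 on the arrays labelled E62C, against 9.57 to 9.81 on all 10 others. On E62C replicate 2 and SO16 replicate 2 the E. coli hybridisation controls averaged 9.0 and 8.97, against 10.24 to 11.78 elsewhere. Mean levels of the ribosomal RNA probe sets there were 11.93 and 11.56, against 8.85 to 10.37 on the remaining 10 arrays.

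All 5 late enzymes rose on the arrays labelled E62A, by 0.45 to 1.07 on the log2 scale. Among all genes, 5.56% rose in this comparison with an adjusted p under 0.05, and the median difference of all genes was 0.0. ERG3, a sterol desaturase that uses oxygen, had levels of 12.94 and 13.02 on the E62A arrays, against 11.94 and 11.89 on the REF arrays. This 2.1-fold rise (1.07 ± 0.08, limma adjusted p = 5.95e-06) was the largest among the 9 genes. ERG2, the sterol isomerase that acts before it, had levels of 12.77 and 12.76 on the E62A arrays, against 12.06 and 12.07 on the REF arrays. The E62A replicates of ERG2 lay closer to each other than those of ERG3, and the rise was 1.62-fold (0.70 ± 0.08, limma adjusted p = 1.45e-04).

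ERG6, the methyltransferase that takes zymosterol into the fungal branch, had levels of 12.64 and 12.72 on the E62A arrays, against 12.02 and 12.14 on the REF arrays, a rise of 0.60 ± 0.09 (limma adjusted p = 0.00118). ERG4, the reductase of the last step, had levels of 11.99 and 11.94 on the E62A arrays, against 11.29 and 11.31 on the REF arrays, and rose by 0.67 ± 0.09 (limma adjusted p = 5.72e-04). ERG5, a cytochrome P450 desaturase, had the smallest rise of the 5 enzymes, 1.37-fold. Its levels were 12.46 and 12.48 on the E62A arrays, against 11.95 and 12.09 on the REF arrays (0.45 ± 0.10, limma adjusted p = 0.0105). For each of the 5 enzymes both E62A arrays lay above all 10 other arrays, a pattern that 10.5% of all genes showed. The calls of ERG6, ERG2, ERG3 and ERG4 held when any 1 of the 12 arrays was left out, with a highest adjusted p of 0.0195 for ERG6. That of ERG5 ended without E62A replicate 1 (adjusted p = 0.0713), E62A replicate 2 (0.0821) or REF replicate 1 (0.0989).

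**Figure D1:**
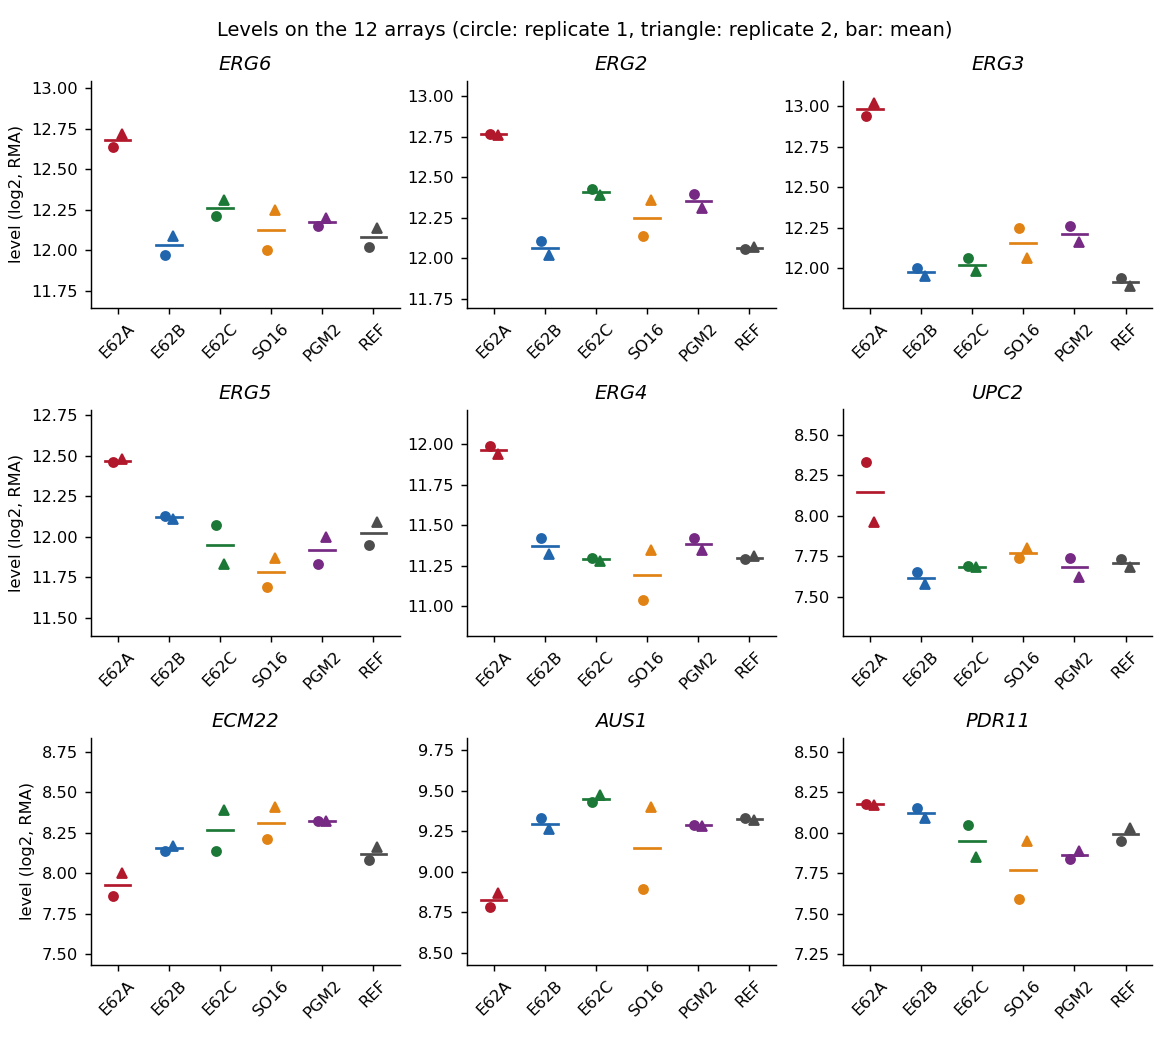
Log2 RMA level of each of the 9 genes (vertical axis, same span in every panel) on the 12 arrays, by group (horizontal axis), with replicate 1 as a circle, replicate 2 as a triangle and a bar at their mean. The E62A arrays lie above the other 10 arrays for the 5 enzymes and UPC2; for AUS1 their higher value, 8.87, lies next to SO16 replicate 1 at 8.89, and for PDR11 their lower value, 8.17, next to an E62B array at 8.15.

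In the other groups the late enzymes stood closer to REF. On the arrays labelled E62B none of the 9 genes passed the limma test, and none had an unadjusted p under 0.05. No gene of the 5449 was called there (0%), and 97 (1.78%) had an unadjusted p under 0.05. The differences of the 5 enzymes lay between -0.05 ± 0.09 for ERG6 and 0.10 ± 0.10 for ERG5, and the 95% confidence intervals of all 9 genes lay within -0.31 and 0.37. ERG5, with levels of 12.13 and 12.11 on the E62B arrays, against 11.95 and 12.09 on the REF arrays, stood just above both REF values.

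On the arrays labelled E62C, 1 of the 9 genes was called, against 9.80% of all genes. This was ERG2, with levels of 12.43 and 12.39 on the E62C arrays, against 12.06 and 12.07 on the REF arrays, a rise of 0.34 ± 0.08 (limma adjusted p = 0.018). The call ended when either REF array was left out (0.111 without replicate 1 and 0.0743 without replicate 2, as adjusted p), without E62C replicate 1 (0.0648), and with only the 4 arrays compared in the fit (0.0536). The ERG6 difference was 0.18 ± 0.09 (95% confidence interval -0.02 to 0.38), and those of ERG3, ERG5 and ERG4 lay between -0.07 and 0.11.

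ERG2 and ERG3 rose on the arrays labelled PGM2, 2 of 9 genes against 13.6% of all genes. ERG3 had levels of 12.26 and 12.16 on the arrays labelled PGM2, against 11.94 and 11.89 on the REF arrays (0.30 ± 0.08, limma adjusted p = 0.0277). ERG2 had levels of 12.40 and 12.31 on the arrays labelled PGM2, against 12.06 and 12.07 on the REF arrays (0.29 ± 0.08, limma adjusted p = 0.0342). Both calls were near the threshold. Both ended without PGM2 replicate 1, with an adjusted p of 0.203 for ERG3 and 0.23 for ERG2. They also ended when REF replicate 1 was left out (0.088 for ERG3 and 0.144 for ERG2) or REF replicate 2 (0.145 for ERG3 and 0.124 for ERG2). The ERG2 call also ended without PGM2 replicate 2 (0.064), either E62A replicate (0.0615) or either E62B replicate (0.0542), and the ERG3 call ended when each array was centred on its median (0.0583).

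No member was called on the arrays labelled SO16, against 8.79% of all genes, although 3 had an unadjusted p under 0.05, as had 20.8% of all genes. These were ERG3 (0.24 ± 0.08), ERG5 (-0.24 ± 0.10) and ERG2 (0.18 ± 0.08). The differences depended on which SO16 array was used, and the fits with 1 SO16 array are given as differences only. Without SO16 replicate 2, an array with weak hybridisation controls, the differences from REF were 0.33 for ERG3, -0.43 for AUS1 and -0.40 for PDR11. When E62C replicate 2 was left out as well, these 3 were unchanged. In that fit ERG5 and ERG4 lay below REF, with differences of -0.33 and -0.25. Both fits take SO16 replicate 1 alone for the group and assume that it varies like the other arrays. Without SO16 replicate 1 instead, the differences were 0.29 for ERG2 and 0.08 for AUS1.

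**Figure D2:**
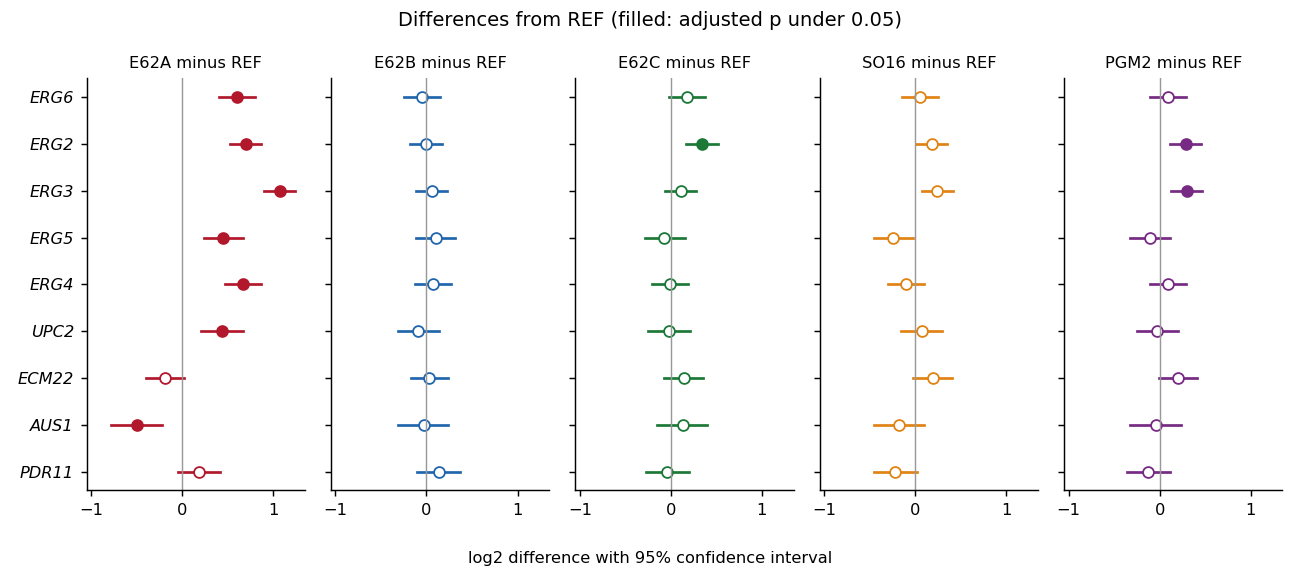
Log2 difference of each labelled group minus REF (horizontal axis) for the 9 genes (rows), with 95% confidence intervals of the limma fit and filled points at an adjusted p under 0.05. Of the filled points, 7 belong to E62A, 1 to E62C (ERG2) and 2 to PGM2 (ERG2 and ERG3), with none for E62B or SO16.

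Of the 2 regulators, UPC2 rose on the E62A arrays and ECM22 did not pass against REF. UPC2, which in wild-type cells rises itself when sterol is scarce, had levels of 8.33 and 7.96 on the E62A arrays, against 7.73 and 7.68 on the REF arrays, a rise of 0.44 ± 0.10 (limma adjusted p = 0.0168). The E62A replicates lay far apart, but the lower was still above the highest of the other 10 arrays, 7.80. Without E62A replicate 1 the difference was 0.25 and did not pass (adjusted p = 0.149), nor did it without REF replicate 1 (0.072) or REF replicate 2 (0.101). On the arrays of the other 4 groups UPC2 stood between 7.58 and 7.80, and its differences from REF between -0.09 and 0.07.

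ECM22, which shares its target sites with Upc2, had levels of 7.86 and 8.0 on the E62A arrays, against 8.08 and 8.16 on the REF arrays. The difference of -0.19 ± 0.10 did not pass (95% confidence interval -0.40 to 0.02, limma adjusted p = 0.239). The lowest of the other 10 arrays was 8.08. Without both arrays of weak controls the same difference passed (adjusted p = 0.0456). Against the arrays labelled E62C, SO16 and PGM2, ECM22 was lower on the E62A arrays by the test, with differences of -0.34 ± 0.10, -0.38 ± 0.10 and -0.39 ± 0.10 (limma adjusted p = 0.0326, 0.016 and 0.0121). ECM22 stood at 8.39 on E62C replicate 2 and 8.41 on SO16 replicate 2, the arrays of weak controls. On replicate 1 of these groups it stood at 8.14 and 8.21. For ECM22 these comparisons were not repeated without the arrays of weak controls. In these comparisons UPC2 was higher on the E62A arrays by 0.46 ± 0.10, 0.37 ± 0.10 and 0.47 ± 0.10 (limma adjusted p = 0.0115, 0.0265 and 0.00747).

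AUS1 moved against the enzymes on the E62A arrays. Its levels there were 8.78 and 8.87, against 9.33 and 9.32 on the REF arrays, a 1.41-fold lower value (-0.50 ± 0.13, limma adjusted p = 0.0236). Of all genes 6.97% fell in this comparison. The AUS1 call was the least stable of the 7 made for E62A, and it ended without E62A replicate 1 (adjusted p = 0.161), E62A replicate 2 (0.0886), REF replicate 1 (0.118) or REF replicate 2 (0.105), and when all probe sets were tested (0.0525). AUS1 also lay apart on SO16 replicate 1, at 8.89, whereas SO16 replicate 2 stood at 9.40, a gap that makes this gene the most variable of the 9 within groups.

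PDR11, the other importer, did not pass the test. Its levels were 8.18 and 8.17 on the E62A arrays, against 7.95 and 8.03 on the REF arrays (0.19 ± 0.11, limma adjusted p = 0.309). The 95% confidence interval was -0.04 to 0.42, and both E62A arrays lay just above the highest of the other 10, an E62B array at 8.15. Without both arrays of weak controls this difference passed (adjusted p = 0.0356). Across the 6 groups PDR11 was the 1 member that missed the F test of any difference (limma adjusted p = 0.0712). The other 8 passed, from ERG3 (1.24e-05) to ECM22 (0.0481), against 27.2% of all genes.

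The 6 groups were then compared in all 15 pairs, with p values adjusted over all genes within each pair. In the 25 comparisons of an enzyme on the E62A arrays with the same enzyme in another group, all 25 differences passed and were positive, from 0.35 for ERG5 against E62B to 1.07 for ERG3 against REF. Of all genes, 5.56% were called higher for E62A minus REF, 5.10% for E62A minus E62B and 7.84% for E62A minus E62C. The shares called higher were 10.4% for E62A minus SO16 and 10.6% for E62A minus PGM2. All genes called in either direction made up 12.4% for E62A minus E62B, 17.8% for E62A minus E62C, 19.9% for E62A minus SO16 and 22.7% for E62A minus PGM2. The comparisons share the E62A arrays and are not independent. When 1 array was left out, between 21 and 25 of the 25 differences passed.

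UPC2 was higher on the E62A arrays than in each of the 5 other groups, but in none of them without E62A replicate 1. AUS1 was lower than in 4, the exception being SO16 (-0.32 ± 0.13, limma adjusted p = 0.0985). Its count was 0 without E62A replicate 1, 1 without E62A replicate 2 and 2 without REF replicate 1 or REF replicate 2. PDR11 was higher on the E62A arrays than on those labelled SO16 (0.41 ± 0.11, limma adjusted p = 0.0199).

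**Figure D3:**
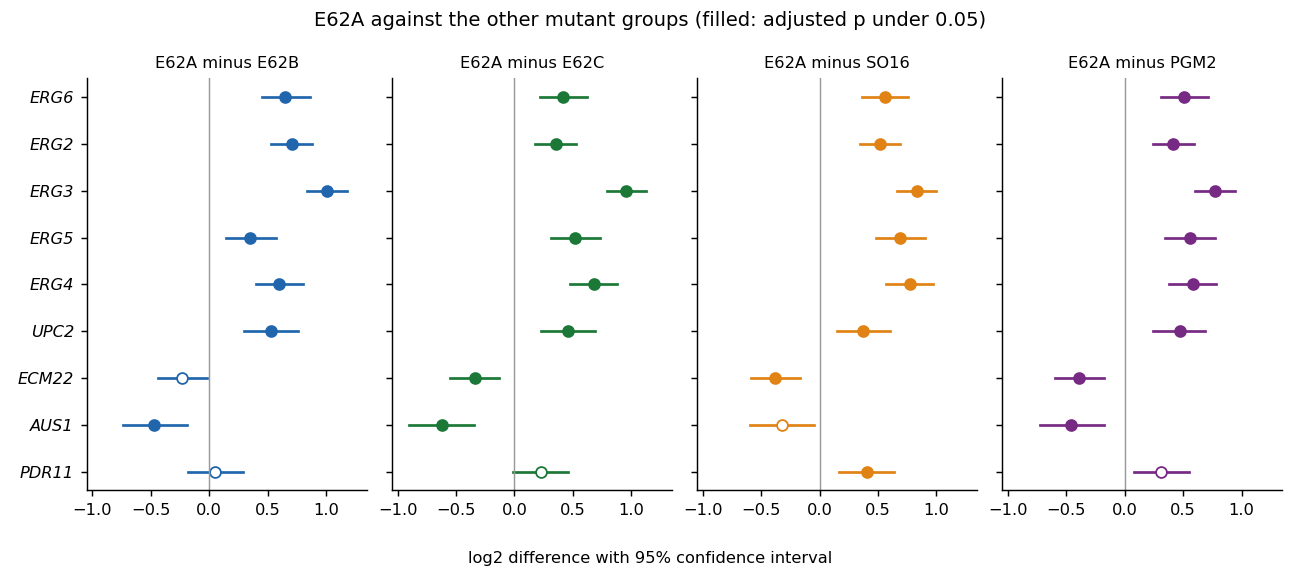
Log2 difference of E62A minus each other mutant group (horizontal axis) for the 9 genes (rows), with 95% confidence intervals and filled points at an adjusted p under 0.05. The 5 enzymes and UPC2 are filled and to the right of 0 in every panel, and AUS1 lies to the left of 0 throughout, open against SO16 alone.

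Among the 5 groups other than E62A, 6 of 90 comparisons of a member between a pair of groups passed. Besides ERG2 on the arrays labelled E62C and ERG2 and ERG3 on those labelled PGM2, each against REF, these were ERG2 for E62B minus E62C (-0.35 ± 0.08, limma adjusted p = 0.0146), ERG2 for E62B minus PGM2 (-0.29 ± 0.08, 0.0264) and ERG5 for E62B minus SO16 (0.34 ± 0.10, 0.0476). Of all genes 12.1%, 16.9% and 10.8% were called in these last 3 pairs, and 3.43%, 8.85% and 3.40% in E62C minus SO16, E62C minus PGM2 and SO16 minus PGM2, where no member passed. When the 6 groups were ordered by mean level, the step from E62A to the next group passed for each of the 5 enzymes and for UPC2, and no other neighbouring step did. That next group was E62C for ERG6 and ERG2, PGM2 for ERG3 and ERG4, E62B for ERG5 and SO16 for UPC2. For ECM22 (PGM2 highest at a mean of 8.32, E62A lowest at 7.93), AUS1 (E62C highest at 9.45, E62A lowest at 8.83) and PDR11 (E62A highest at 8.18, SO16 lowest at 7.77) no neighbouring step passed.

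The genes that act before the late enzymes were described by lists of known pathway members. On the E62A arrays 13 of the 20 earlier genes rose and 0 fell, where 5.56% of all genes rose. Their median difference was 0.35, against 0.0 for all genes. From squalene synthesis to zymosterol 9 of 11 genes rose (median 0.45), and in the mevalonate branch 4 of 9 did (median 0.21). These shares were not tested against each other. The count of 13 was 5 without E62A replicate 1, 6 without E62A replicate 2 and 5 without REF replicate 1.

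In the mevalonate branch the 3 largest rises were those of MVD1, the mevalonate pyrophosphate decarboxylase (0.44 ± 0.10, limma adjusted p = 0.0126), HMG2 (0.44 ± 0.10, 0.0129) and HMG1 (0.31 ± 0.07, 0.0155), the last 2 being the HMG-CoA reductases. The 9 differences ran from -0.04 to 0.44. From squalene synthesis to zymosterol the largest rise was that of ERG28, a scaffold that holds sterol enzymes together (0.87 ± 0.09, limma adjusted p = 8.38e-05). It was followed by ERG24, a sterol reductase (0.76 ± 0.11, 0.00118), and NCP1, the reductase that passes electrons to cytochrome P450 enzymes (0.64 ± 0.09, 7.66e-04). All 11 differences there were positive, from 0.13 to 0.87. The late enzymes had a median of 0.67.

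The other groups were described in the same way. On the E62B arrays 0 of 20 passed the limma test, as for all genes. Of the 20, 2 rose on the arrays labelled E62C, ERG28 (0.74 ± 0.09, limma adjusted p = 3.45e-04) and ERG26 (0.50 ± 0.09, 0.00565), with a median of 0.11 for the 20, against 0.03 for all genes, a share near the 9.80% of all genes called there. In SO16 0 of 20 passed (median 0.06), against 8.79% of all genes, and on those labelled PGM2 1 did, HMG1 (0.32 ± 0.07, 0.0115), also with a median of 0.06, against 13.6% of all genes.

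**Figure D4:**
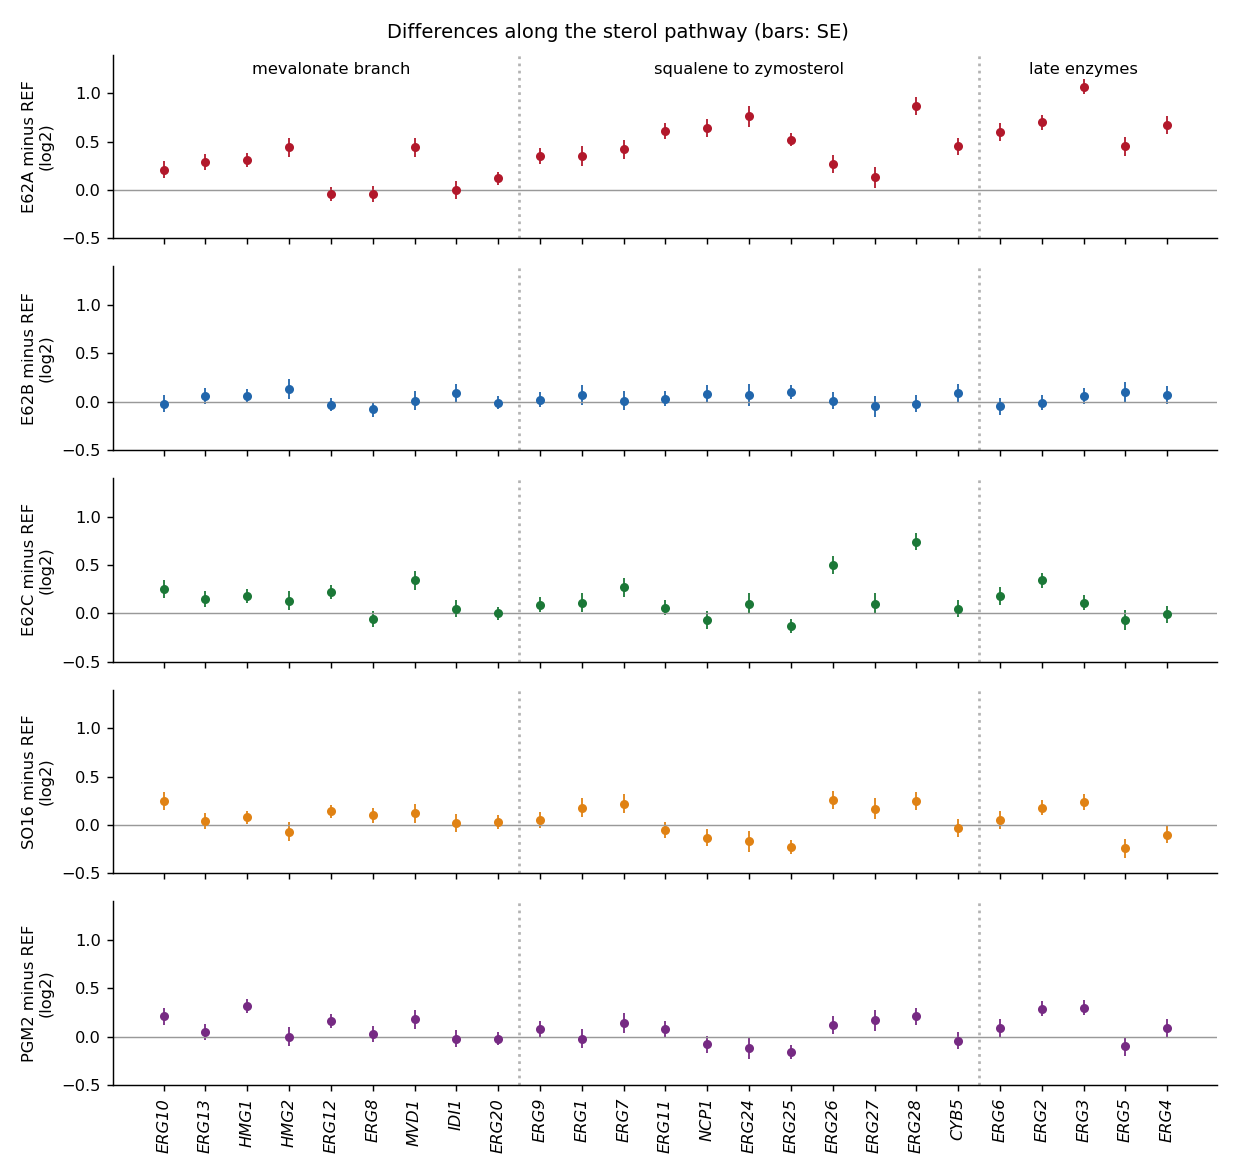
Log2 difference of each group minus REF (vertical axis, 1 panel per group) for 25 genes in the order of the pathway (horizontal axis), 9 of the mevalonate branch, 11 from squalene synthesis to zymosterol and the 5 late enzymes, with bars of 1 SE. Points are drawn alike whether or not the gene passed the test. In the E62A panel 18 of the 25 genes passed at an adjusted p under 0.05 and lie above 0. None passed in the E62B and SO16 panels.

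Sterol storage genes rose in part on the E62A arrays. Of 5 genes for sterol esters, 3 rose and none fell (median 0.29), where 5.56% of all genes rose. ARE2 and ARE1, the acyltransferases that esterify sterols, rose by 0.66 ± 0.09 (limma adjusted p = 8.27e-04) and 0.37 ± 0.11 (0.0422), and YEH1, a hydrolase that frees sterol from its esters, by 0.29 ± 0.07 (0.0245). None of the 5 passed in the other 4 groups against REF, with medians of 0.07 in E62B, 0.12 in E62C, -0.14 in SO16 and 0.07 in PGM2. The shares of all genes called there were 0%, 9.80%, 8.79% and 13.6%, in the same order.

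Among 14 genes of sterol acetylation and transport, 2 rose and 1 fell on the E62A arrays (median 0.01), against 12.5% of all genes called in either direction. ATF2, which acetylates sterols, had the largest rise of any gene on the lists, 3.12-fold (1.64 ± 0.07, limma adjusted p = 2.22e-07). SWH1, a homolog of the oxysterol-binding protein, rose by 0.38 ± 0.07 (0.00508), and PRY2, a secreted sterol-binding protein, fell by 0.24 on the log2 scale (0.0239). In this list 0 passed in E62B, as for all genes. In E62C 3 fell, on the arrays labelled SO16 2 rose and 2 fell, and on those labelled PGM2 2 rose and 2 fell, against 9.80%, 8.79% and 13.6% of all genes in these 3 comparisons. ATF2 was among the genes that rose in SO16 (0.33 ± 0.07, limma adjusted p = 0.0106) and PGM2 (0.35 ± 0.07, 0.00547).

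Among genes tied to low oxygen or heme, 1 of 9 regulators, 3 of 6 Rox1-repressed genes and 0 of 8 cell wall genes passed on the E62A arrays, against 12.5% of all genes. Of the 9 regulators, MGA2, a membrane-bound activator of the fatty acid desaturase gene, rose on the E62A arrays (0.63 ± 0.11, limma adjusted p = 0.00341), and the list's median was -0.02. In the other groups 0 passed in E62B, E62C and SO16, and SUT2 rose on the arrays labelled PGM2 (0.39, limma adjusted p = 0.0115). The shares of all genes called were 0% in E62B, 9.80% in E62C, 8.79% in SO16 and 13.6% in PGM2. Of 6 genes repressed by Rox1, the heme-dependent repressor of hypoxic genes, HEM13 (heme synthesis) and AAC3 (an ADP/ATP carrier) rose on the E62A arrays by 0.38 ± 0.11 (0.0446) and 0.35 ± 0.08 (0.0157). CYC7, an isoform of cytochrome c, fell by 0.87 on the log2 scale (0.00394). HEM13 had the same difference from REF on the arrays labelled E62C, 0.38 ± 0.11, but did not pass there (limma adjusted p = 0.0516). CYC7 and COX5B, a subunit of cytochrome c oxidase, both fell on the arrays labelled SO16 (-0.82 and -0.45) and PGM2 (-1.92 and -0.77), and COX5B fell on those labelled E62C (-0.40), with limma adjusted p values between 1.13e-05 and 0.016.

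Cell wall mannoprotein genes that are induced when oxygen is lacking were measured as 8 members, of which DAN1 was below background on all 12 arrays. None passed on the E62A, E62B or E62C arrays, against 12.5%, 0% and 9.80% of all genes called. TIR3 fell on the arrays labelled SO16 (-0.73 ± 0.12, limma adjusted p = 0.00251) and PGM2 (-0.71, 0.00231), and DAN4 rose on those labelled PGM2 (0.29, 0.0371). The shares of all genes called in SO16 and PGM2 were 8.79% and 13.6%.

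AUS1 and PDR11 were also set beside 7 other ABC transporters of the drug resistance family. On the E62A arrays 1 of the 7 rose, PDR12, an exporter of weak acids (0.43 ± 0.12, limma adjusted p = 0.0301), and none fell, with a median of 0, a share near the 12.5% of all genes. PDR18 was below background on all 12 arrays. None passed in E62B or E62C, against 0% and 9.80% of all genes. In SO16 1 rose and 2 fell, and in PGM2 3 rose and 1 fell, PDR15 falling in both (-0.58 and -0.84), against 8.79% of all genes in SO16 and 13.6% in PGM2.

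The genes with the pattern most like each of the 4 members of widest range were found by the root mean square difference over the 12 arrays, with each gene centred on its own mean. For ERG4 the closest was NCP1, at 0.0678 on the log2 scale, followed by ERG11, the lanosterol demethylase, at 0.0804, then RTS2 and MNN5. For ERG3 the closest were IMP2 (0.136), STR3 (0.143), ERG29 (0.154) and SRT1 (0.171), distances larger than for ERG4. ERG2 had ARG7 (0.0677), MCH1, YMC1 and SRO77 nearest to it. ERG5 had ATG36 (0.0617), LDO16, ATG7 and BIO5. Since these genes were picked for their likeness to members that are high on the E62A arrays, their own differences there are fixed by the choice and were given no test.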

How the data were processed

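Total RNA was hybridised to Affymetrix arrays, 12 in all with 2 per group. The deposited values are log2 expression levels that the authors made with RMA in affy (versions not given), per the submitters' processing notes. The method summarises probes after quantile normalization, and it compresses large differences and differences at low levels. The table holds 10928 probe sets, with values from 5.42 to 14.43 and array medians from 6.72 to 6.89. Of these, 7244 have 1 gene symbol, 1 has several and 3683 have none in the platform annotation, with symbols updated through RefSeq names. The 5498 named budding yeast probe sets gave 5449 genes, the probe set with the highest mean standing for each gene. The background level, 6.00, is the 95th percentile of the means of 1746 fission yeast probe sets, and 109 genes lie below it.

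The limma package (3.58.1, R 4.3.3) was run with 1 mean for each group on all 12 arrays and had 6 residual degrees of freedom and moderated variances (prior degrees of freedom 4.97). All 15 pairs of groups and an F test were taken from this fit, with Benjamini-Hochberg adjustment over all genes. An exact permutation test of 2 arrays against 2 cannot go below p = 0.333 and was not used. Precision is limited by how few arrays there are. The code was tested on simulated data. Figures were drawn with Python 3.11.15 and matplotlib 3.10.9. Named genes were the 9 members, GAL80, MIG1, LAP3 and PGM2 as a label check, up to 3 called genes of largest difference per list and comparison with REF, and the 4 genes nearest in pattern to each of 4 members. ERG11 and ERG29 stand in the text under this last rule. The members and lists were chosen with earlier results of these data known. The alternatives were other array scaling, probe set choices, filters, variance models, array weights, a replicate block, fewer arrays and a stricter threshold.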

Additional observations from a re-analysis of the deposited data

Results flagged for a closer look

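The 3 groups labelled as evolved mutants differed from each other in several members when the difference itself was tested with limma. Between E62A and E62B the log2 differences (E62A minus E62B) that passed were 0.65 for ERG6, 0.71 for ERG2, 1.01 for ERG3, 0.35 for ERG5, 0.60 for ERG4, 0.53 for UPC2 and -0.47 for AUS1. Between E62A and E62C (E62A minus E62C) they were 0.42 for ERG6, 0.36 for ERG2, 0.96 for ERG3, 0.52 for ERG5, 0.68 for ERG4, 0.46 for UPC2, -0.34 for ECM22 and -0.62 for AUS1. Between E62B and E62C 1 member passed, ERG2, with a difference of -0.35 (E62B minus E62C). The arrays labelled E62C carry the PGM2 label conflict, so the differences that involve them are between evolved mutants only if this label is right. E62C replicate 2 had weak hybridisation controls, whose part in these differences was not tested.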

How the results depend on the processing

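At an adjusted p under 0.01 the count of members called was 4 for E62A minus REF, 0 for E62C minus REF, 0 for PGM2 minus REF and 5 in the F test, UPC2 was higher on the E62A arrays in 2 of 5 comparisons, AUS1 was lower in 1, and 6 earlier pathway genes rose in E62A. With the 4 arrays compared alone, E62C minus REF had 0 members. With arrays centred on their medians, PGM2 minus REF had 1. With all probe sets tested, AUS1 was lower in E62A in 1 of 5 comparisons. Without both arrays of weak controls, small differences changed sign, namely ERG5, ERG4 and PDR11 for E62C minus REF (0.05, 0.0036 and 0.06) and ERG6 for SO16 minus REF (-0.08). UPC2 for PGM2 minus REF was 0.0024 after quantile normalization. The cause was not tested. None of the counts in this section was set beside the share of all genes called under the same alternative. With 1 array left out, the counts ran from 4 to 7 for E62A (4 without E62A replicate 1 or REF replicate 1), 0 to 1 for E62C, 0 to 3 for SO16, 0 to 2 for PGM2 and 5 to 9 in the F test. The enzyme count ran from 21 to 25, UPC2 and AUS1 from 0 to 5, and the earlier genes from 5 to 14. Uncalled differences that changed sign ran, for E62B minus REF, from -0.12 to 0.01 for ERG6, -0.05 to 0.04 for ERG2, -0.004 to 0.07 for ECM22 and -0.07 to 0.0015 for AUS1. For E62C minus REF they ran from -0.19 to 0.05 for ERG5, -0.02 to 0.0036 for ERG4, -0.05 to 0.01 for UPC2 and -0.13 to 0.06 for PDR11. For SO16 minus REF they ran from -0.08 to 0.17 for ERG6, -0.25 to 0.05 for ERG4 and -0.43 to 0.08 for AUS1, and for PGM2 minus REF from -0.08 to 0.03 for UPC2. Of the single-gene values under alternatives, 1056 kept direction and side of the threshold, 33 lost a call, 12 gained one and 24 changed sign. The counts over the 5 E62A comparisons and the earlier genes were alternatives chosen after seeing the data.

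With the replicate number as a block, the counts were 7 for E62A, 0 for E62B, 1 for E62C, 0 for SO16, 2 for PGM2 and 8 in the F test, as without it. The block is 1 term shared by all groups, so it cannot take up deviations that run in opposite directions in different groups. Deviations of same-numbered arrays correlated above 0.1 in 6 of 15 pairs of groups (-0.35 to 0.541). These 6 were the pairs within REF, E62B and PGM2 (0.474 to 0.532) and within E62A, E62C and SO16 (0.178 to 0.541). Both arrays of weak controls, E62C replicate 2 and SO16 replicate 2, have the number 2. The labels name no shared batch, and the numbers were not taken to pair the samples.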

Other observations

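The 2 arrays labelled SO16 lay further apart than those of most other groups for several members. The standard deviation of the pair was 0.36 for AUS1, 0.25 for PDR11, 0.22 for ERG4 and 0.18 for ERG6, against 0.00, 0.06, 0.02 and 0.09 in REF.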
